A study of Homo sapiens with 3 samples.

Results

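The S100 calcium binding family was followed through 10 of its genes, S100A2, S100A4, S100A6, S100A7, S100A8, S100A9, S100A10, S100A11, S100A14 and S100A16. They were chosen by name, and all 40 of their transcripts in the tables were summed per gene, among 52992 genes in all. The libraries came from TE5, an esophageal squamous cell carcinoma line, grown in RPMI-1640 with serum. The cells had been transfected with a scrambled hairpin (scramble, 1 library) or with a hairpin against KLF5 (shKLF5, 2 libraries) and were harvested after 48 h, so both groups went through transfection. KLF5 is a Krüppel-like factor, a transcription factor of dividing epithelial cells. The labels number the shKLF5 libraries 1 and 2 without saying whether these are different hairpins, cultures or preparations. The spread behind a p-value here therefore comes from 2 libraries only and may be technical, and scramble is taken to vary as they do. For each gene edgeR weighs its own spread with that pooled over all genes, and the pooled part weighs more.

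S100 proteins are small cytosolic proteins built around EF-hand loops, which bind calcium in most members, and most work as dimers. In most but not all members calcium opens a hydrophobic face that docks onto a partner, such as an annexin at the membrane or a myosin. Some members are also secreted and act on receptors of neighbouring cells. Squamous epithelium is known for several of them: S100A2 in basal cells, S100A10 and S100A11 with annexins, S100A7, S100A8 and S100A9 in inflamed or stressed epithelium, and S100A14 and S100A16 in epithelia more widely. All 10 genes lie in 1 interval of chromosome 1 (GRCh38, 151982915 to 153616986), which also holds the genes of the cornified envelope.

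The totals were between 32720563 and 33544752 estimated counts a library, of which transcripts encoded in mitochondria took 31.1% to 38.1%. KLF5 itself was lower in both shKLF5 libraries, with 8402 counts in scramble against 1333 and 1531. All 6 squamous markers of the list (KRT5, KRT6A, TP63, EPCAM, CDH1 and DSG3) were also lower in both libraries by value, none of them called by edgeR's quasi-likelihood test. DESeq2 called 2 of them. Among genes with a mean of at least 50 CPM (counts relative to the library total), 59.6% were lower in both. The markers' summed level was 3565 TPM in scramble against 1057 and 574. TPM is a level per length of transcript, with the same sum in each library. Of 10 leukocyte markers 5 reached 10 counts, and the sum over all 10 was 4.17, 11.5 and 15.4 TPM in scramble, library 1 and library 2. For the 6 fibroblast markers it was 16.7, 26.3 and 15.4 TPM, and for the 4 of melanocytes and glia 1.88, 4.19 and 4.71 TPM. Of 3 endothelial markers 2 were matched, VWF with 87, 237 and 341 counts and CDH5 with 0, 14 and 10. No leukocyte or fibroblast marker was at 0 in every library. PTPRC, the common leukocyte antigen, had 8, 24 and 11 counts, CD14 6, 7 and 17, ITGAM 8, 72 and 108, and CSF3R 8, 32 and 43. Among the fibroblast markers PDGFRB had 3, 39 and 35 counts, COL1A2 1, 18 and 15, and COL3A1 484, 435 and 48. The test took in 5 leukocyte, 5 fibroblast and 2 endothelial markers. At an unadjusted p under 0.05 by edgeR's quasi-likelihood test, 2 of each were higher and 0 were lower. Except for VWF, those higher had between 0 and 8 counts in scramble. They passed the filter on low counts only through a shKLF5 library, so their p-values are no support for a rise. Over all genes 5.68% were higher at that limit. None of these markers was called. The part of these shifts in the values of the S100 genes was not tested. In bulk RNA, fewer cells with a transcript and less of it per cell cannot be told apart.

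Of the 10 genes, 4 were abundant and 6 were not. S100A11, S100A10, S100A6 and S100A2 together made up 98.8%, 98.96% and 99.01% of the summed TPM of the family in scramble, library 1 and library 2. That sum was 1911 TPM in scramble, 1739 in library 1 and 1599 in library 2. S100A4 stood an order below them, S100A16 and S100A14 were near 1 TPM, and S100A7, S100A8 and S100A9 were at or next to 0. This order held in scramble as S100A11, S100A10, S100A6, S100A2, S100A4, S100A16 and S100A14. In both shKLF5 libraries S100A6 came before S100A10, and in library 2 S100A14 also came before S100A16.

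**Figure D1:**
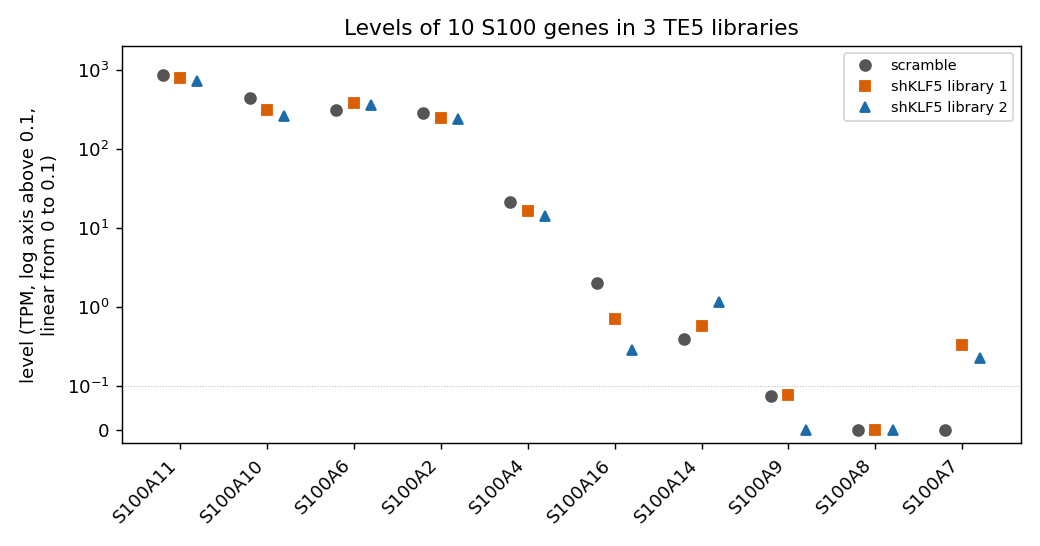
Level in TPM (vertical axis, logarithmic above 0.1 and linear from there to 0) of the 10 S100 genes in each of the 3 libraries, with 1 symbol per library and no error bars, since each symbol is a single library. S100A11, S100A10, S100A6 and S100A2 lie between 242 and 853 TPM in every library, and S100A8 lies at 0 in all of them.

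In the comparison of shKLF5 with scramble, counts relative to the library total (CPM) were scaled by TMM, which sets the typical gene of each library level. On this scale 6 of the 7 members with enough counts to be tested were lower in both shKLF5 libraries and 1, S100A14, was higher in both. Among all 20629 genes tested, the share lower in both was 36.5% and the share higher in both 37.9%. Abundant genes were lower more often: of the 3501 genes with a mean of at least 50 CPM, a limit chosen after the values were seen, 59.6% were lower in both. The members' median log2 fold change was -0.63, against 0.04 over all genes tested and -0.24 over the abundant ones. None of the 7 passed edgeR's quasi-likelihood test, for which 0% of all genes had a Benjamini-Hochberg adjusted p under 0.05, and none passed by DESeq2, which called 0.669% of the genes it adjusted, by edgeR's legacy fit, which called 0.102%, or by limma. At an unadjusted p under 0.05 there were 2, S100A10 and S100A16, both lower, where 3.50% of all genes were lower at that limit, and no member was higher, where 5.68% of all genes were.

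**Figure D2:**
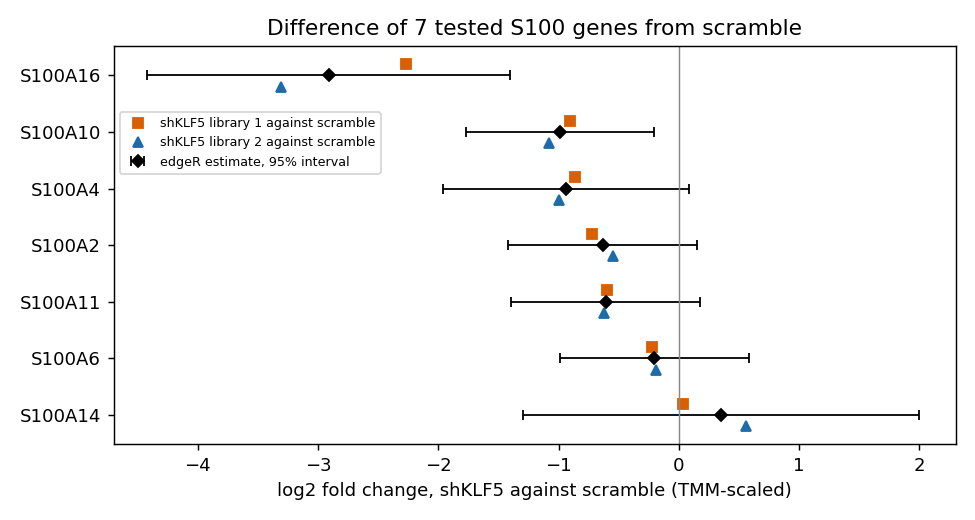
Log2 fold change of shKLF5 against scramble (horizontal axis, TMM-scaled) for the 7 tested S100 genes, with edgeR's estimate and 95% confidence interval in black and each shKLF5 library against the single scramble library in colour. The intervals of S100A16 and S100A10 lie below 0, and those of the other 5 genes include 0.

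S100A10 and S100A11 are the partners of annexins. S100A10, or p11, binds annexin A2 in a complex at the plasma membrane that holds plasminogen and ion channels. S100A10 (ENSG00000197747; chromosome 1, 151982915 to 151994390) was read 7173 times in scramble, 5172 times in library 1 and 4430 times in library 2. Scramble was the highest of the 3 libraries in counts, in CPM and in TPM, and the shKLF5 libraries lay close to each other. The level was 269.8 CPM in scramble against 136 ± 11.97 CPM (SD, n = 2), and 441 TPM against 313 and 263. The log2 fold change of S100A10 was -0.99 (SE 0.34, 95% interval -1.77 to -0.21), with an adjusted p of 0.474 by edgeR's quasi-likelihood test, and it was the lowest of the 4 abundant members.

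S100A11, also called calgizzarin, binds annexin A1 and annexin A2 and takes part in keratinocyte growth control and membrane repair. It was the most abundant member, ranking 24th in TPM of 19415 nuclear protein-coding genes in scramble, 28th in library 1 and 34th in library 2. S100A11 (ENSG00000163191; chromosome 1, 152032506 to 152047907) gave 11361, 10124 and 9662 counts. On the CPM scale this was 427 in scramble against 280.2 ± 3.28 (SD, n = 2). Both shKLF5 libraries were below scramble and nearly equal. The log2 fold change was -0.61 (SE 0.34, 95% interval -1.39 to 0.18; adjusted p = 0.611 by edgeR's quasi-likelihood test). By the pair of log2 fold changes in libraries 1 and 2, the 3 nearest of 3450 other protein-coding genes with at least 50 CPM were MCM4, a subunit of the replicative helicase, KIF11, a mitotic kinesin, and MICALL1, an endosomal adaptor, at distances of 0.0070, 0.0079 and 0.013 over 3 libraries that share 1 scramble.

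S100A6, or calcyclin, binds the ubiquitin ligase adaptor CACYBP and is raised in dividing cells. S100A6 (ENSG00000197956; chromosome 1, 153534599 to 153536244) had 4811 counts in scramble and more in both shKLF5 libraries, 5554 and 5522. Its direction rested on the scaling: TPM was 313 in scramble against 375 and 361, whereas TMM-scaled CPM was 181 in scramble against 157 ± 2.70 (SD, n = 2). The log2 fold change was -0.21 (SE 0.34, 95% interval -0.99 to 0.58; adjusted p = 0.867 by edgeR's quasi-likelihood test) with TMM and 0.22 with library size alone. No direction can be given for S100A6. All genes together had a median of 0.47 when scaled by library size alone, so S100A6 lay below the typical gene there as well. Among genes with a mean of at least 50 CPM the median with TMM was -0.24, close to the -0.21 of S100A6.

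S100A2 is a nuclear and cytosolic member of basal squamous cells that is known to bind p53. S100A2 (ENSG00000196754; chromosome 1, 153561108 to 153567890) reached 3884 counts in scramble, and 3167 and 3472 in libraries 1 and 2. Its level was 146 CPM against 94.1 ± 8.11 CPM (SD, n = 2), and 280.3 TPM against 245 and 242. The shKLF5 libraries did not reach the scramble value on either scale. The log2 fold change of S100A2 was -0.63 (SE 0.34, 95% interval -1.42 to 0.15; adjusted p = 0.602 by edgeR's quasi-likelihood test).

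Ratios within a library do not depend on how libraries are scaled to each other. The TPM ratio of S100A10 to S100A6 was 1.41 in scramble, 0.834 in library 1 and 0.730 in library 2. That of S100A11 to S100A6 was 2.73, 2.11 and 1.99, and that of S100A2 to S100A6 was 0.896, 0.654 and 0.671. In each ratio both shKLF5 libraries lay below the single scramble library, a difference that was not tested. As a share of the family's TPM, S100A10 went from 23.1% in scramble to 18.0% and 16.5%, S100A6 from 16.4% to 21.5% and 22.6%, and S100A11 stayed between 44.7% and 45.4%.

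**Figure D3:**
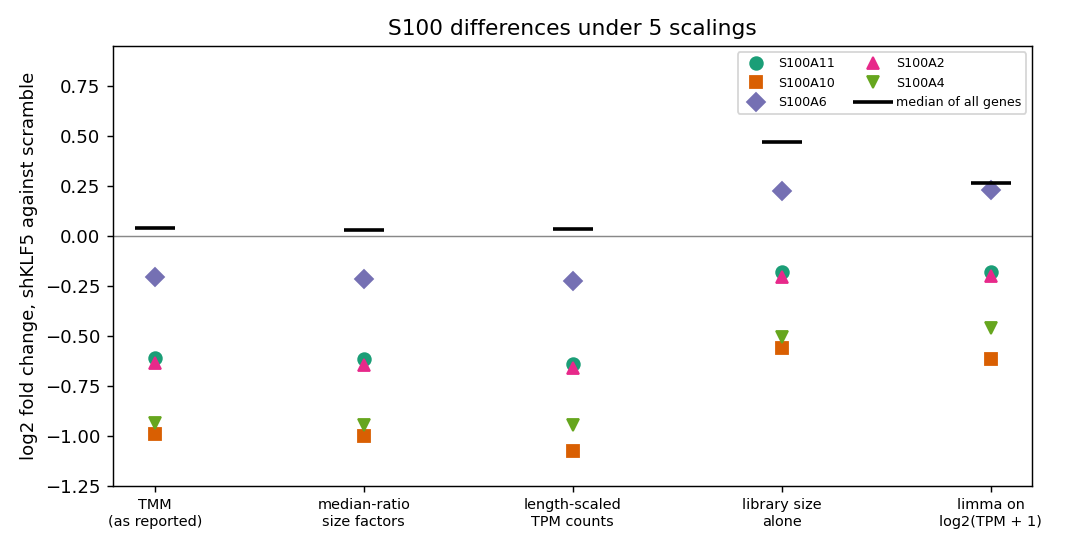
Log2 fold change of shKLF5 against scramble (vertical axis) for 5 S100 genes under 5 ways of scaling the libraries (horizontal axis), with the median of all genes as a black bar. S100A10 is below 0 under each of the 5, and S100A6 is above 0 with library size alone and on the log2(TPM + 1) scale.

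S100A4, also known as fibroblast-specific protein and metastasin, binds nonmuscle myosin and is a marker of motile and mesenchymal cells. S100A4 (ENSG00000196154; chromosome 1, 153543613 to 153550136) gave counts of 307 (scramble), 226 (library 1) and 200 (library 2), and 21.3, 16.4 and 14.1 TPM. Scramble was the highest in both units. The level was 11.5 CPM against 6.03 ± 0.392 CPM (SD, n = 2), which is a log2 fold change of -0.94 (SE 0.44, 95% interval -1.96 to 0.08; adjusted p = 0.566 by edgeR's quasi-likelihood test). The gene overlaps S100A3 on the same strand, but no 31-base word of its transcripts was found in transcripts of another gene.

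S100A16 and S100A14 lie side by side and had opposite signs by value, a difference that was not tested. S100A16 is a widely expressed member of the family. S100A16 (ENSG00000188643; chromosome 1, 153606886 to 153613145) gave counts of 60 (scramble), 15 (library 1) and 6 (library 2). In CPM the level was 2.26 against 0.296 ± 0.174 (SD, n = 2). Against scramble, library 1 stood 5.39-fold lower and library 2 13.1-fold lower. The log2 fold change of S100A16 was -2.91 (SE 0.65, 95% interval -4.42 to -1.40), the lowest of the 7, and its adjusted p was 0.400 by edgeR's quasi-likelihood test and between 0.157 and 0.611 over the alternatives. S100A14 (ENSG00000189334; chromosome 1, 153614255 to 153616986), an epithelial member linked to cell migration, gave 13, 18 and 26 counts. Its level was 0.489 CPM against 0.625 ± 0.174 CPM (SD, n = 2). For this gene the log2 fold change was 0.35 (SE 0.71, 95% interval -1.30 to 2.0; adjusted p = 0.895 by edgeR's quasi-likelihood test), and library 1, at 0.502 CPM, was next to scramble.

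The inflammatory members were not detectable at this depth or stood at a few reads. S100A8 and S100A9 form calprotectin, the calcium and zinc binding heterodimer of neutrophils and of stressed squamous epithelium, and S100A7, or psoriasin, is an antimicrobial protein of inflamed skin. S100A8 (ENSG00000143546; chromosome 1, 153390032 to 153391188) had 0 counts in all 3 libraries. A floor of 3 counts, which covers counting error only, allows up to 0.113 TMM-scaled CPM in scramble, 0.0837 in library 1 and 0.0863 in library 2. S100A9 (ENSG00000163220; chromosome 1, 153357854 to 153361027) had 1, 1 and 0 counts. S100A7 (ENSG00000143556; chromosome 1, 153457744 to 153460701) had 0, 3 and 2, and 25.9% of its 31-base words also occur in its copies S100A7A and S100A7L2. All of these are at or under the floor, so no fold is given, and they were not tested. S100A12, their neighbour and another calgranulin, had 0, 0 and 1 counts.

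Each member was then split into its annotated transcripts, whose estimated counts share reads and carry no test. S100A16 was carried by S100A16-204 in scramble, with 58.4 of its 60 counts, and this transcript had 4.43 counts in library 1 and 2.19 in library 2. The other S100A16 transcripts stayed at under 5 counts each in every library. S100A16-204 starts at 153613083, at the upstream end of the gene. S100A10-201, the main transcript of S100A10, went from 354 TPM in scramble to 242 and 205, and the longer S100A10-202 from 63.0 to 58.4 and 43.4. S100A2 had 3 main transcripts. S100A2-201 was lower in both shKLF5 libraries, with 102 TPM against 58.4 and 66.7. S100A2-204, which starts at 153567890, the farthest upstream, had 111 TPM in scramble against 125 and 93.9, so scramble lay between the shKLF5 libraries. S100A2-202 had 57.5, 48.9 and 54.8 TPM. S100A11-201 held 97.6% to 98.2% of its gene's TPM in each library and S100A6-201 84.5% to 90.7%.

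**Figure D4:**
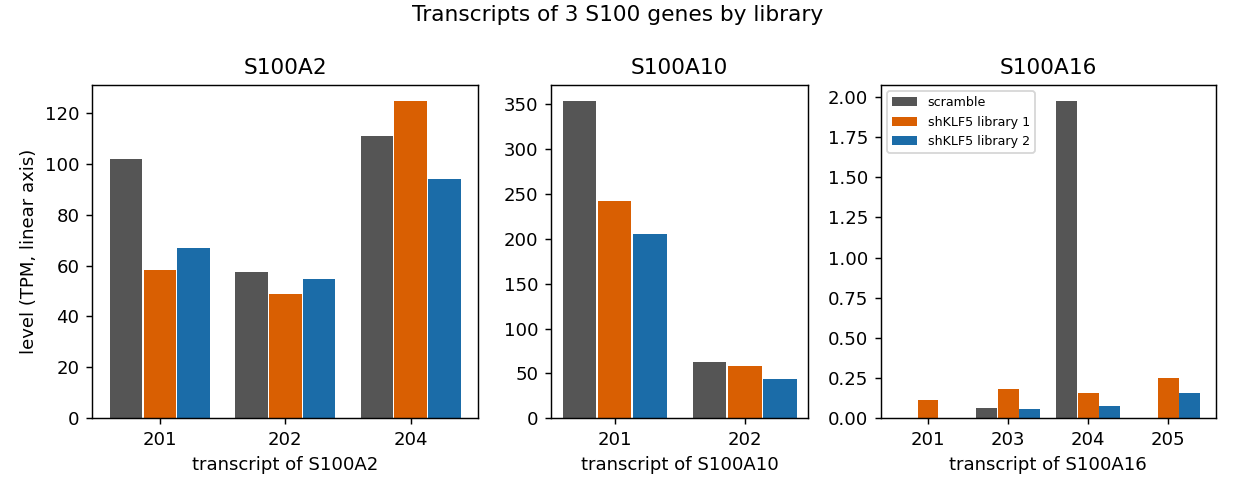
Level in TPM (vertical axes, linear from 0, a different range in each panel) of the transcripts of S100A2, S100A10 and S100A16 that held at least 10% of their gene's TPM in a library, with 1 bar per library. S100A16-204 stands at 1.98 TPM in scramble and at 0.155 and 0.0736 TPM in the shKLF5 libraries.

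The stretch before a start is shown for members at both ends of the range: the abundant S100A11 and S100A2, the S100A16 starts (upstream and downstream), and S100A9, which was hardly read. The S100A2 stretch borders the start of S100A2-202 (153565865). It does not lie before S100A2-204, the S100A2 transcript of highest TPM, which starts farther upstream at 153567890. The sequences are RefSeq's on GRCh38.p14, from the 150 bases before the start and without bases that GENCODE 29 places in an exon. Capitals mark any match, on either strand, to 4 sets of letters: CACCC and CCNCNCCC, which are letters of the kind that Krüppel-like factors bind and which can overlap each other, TGANTCA, the AP-1 site, and TATAAA, the TATA box. They are S100A11 at chr1:152037036-152037154, S100A2 at chr1:153565866-153565994, S100A16 upstream at chr1:153613146-153613287, S100A16 downstream at chr1:153609356-153609505, all on the minus strand, and S100A9 at chr1:153357704-153357853 on the plus strand.
S100A11: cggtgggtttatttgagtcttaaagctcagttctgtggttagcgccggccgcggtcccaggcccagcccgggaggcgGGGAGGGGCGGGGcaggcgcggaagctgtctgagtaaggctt
S100A2: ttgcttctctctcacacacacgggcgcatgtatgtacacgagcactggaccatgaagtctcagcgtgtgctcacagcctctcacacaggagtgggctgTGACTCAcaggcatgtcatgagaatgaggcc
S100A16 upstream: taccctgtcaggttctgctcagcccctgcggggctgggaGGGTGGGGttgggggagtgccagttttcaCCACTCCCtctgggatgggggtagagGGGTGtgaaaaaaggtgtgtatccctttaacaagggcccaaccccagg
S100A16 downstream: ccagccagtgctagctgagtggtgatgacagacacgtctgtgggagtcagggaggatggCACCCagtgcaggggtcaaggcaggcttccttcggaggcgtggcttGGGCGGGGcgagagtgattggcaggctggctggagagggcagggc
S100A9: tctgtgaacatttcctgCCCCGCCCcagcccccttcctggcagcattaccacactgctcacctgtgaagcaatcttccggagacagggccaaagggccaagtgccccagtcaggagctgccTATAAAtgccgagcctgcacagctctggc

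The 10 members had 14 start windows of 150 bases in the RefSeq table, and windows of 1 gene can overlap. CCNCNCCC was found in 8 of the 14, where 44.8% of all 35116 windows hold it, and CACCC in 7, where 39.6% do. Both shares are near the background. TATAAA was found in 5 of the 14, against 6.71% of all windows. These 5 belong to 4 genes, S100A4 and the hardly read S100A7, S100A8 and S100A9, the match of S100A8 falling in 2 overlapping windows. TGANTCA was found in 1, that of S100A2 printed above, against 4.17%. The S100A16 upstream stretch, which lies upstream of the start of S100A16-204, holds CACCC letters in 2 places and CCNCNCCC letters in 2, 1 of them shared. A match is a description of the letters and not of binding.

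Partners and receptors of S100 proteins did not move as 1 block. Of 28 listed genes 25 were tested, 13 of them lower than scramble in both shKLF5 libraries and 9 higher, and the median of their log2 fold changes was -0.04. Over all genes tested 36.5% were lower in both and 37.9% higher. Among genes with a mean of at least 50 CPM the shares were 59.6% and 16.7%. None was called by edgeR's quasi-likelihood test or by DESeq2. At an unadjusted p under 0.05 by the former there were 3 lower and 3 higher, where 9.18% of all genes reached that limit in either direction. The 3 higher were CD36, PLAU and TRPV6, with 2, 0 and 0 counts in scramble. They passed the filter on low counts only through a shKLF5 library, so their p-values are no support for a rise. ANXA2, annexin A2, had 1052 TPM in scramble, 865 in library 1 and 411 in library 2, and a log2 fold change of -1.19 (SE 0.46). It was lower in both libraries, as S100A10 was, but by unequal amounts, and the TPM ratio of S100A10 to ANXA2 was 0.419, 0.361 and 0.640. ANXA1, a partner of S100A11, had 265, 464 and 347 TPM. On the TMM scale it had 393, 490 and 381 CPM, so that library 2 was above scramble in TPM and below it in CPM, and the log2 fold change was 0.15 (SE 0.37). The TPM ratio of S100A11 to ANXA1 was 3.22 in scramble against 1.70 and 2.07. CACYBP, the partner of S100A6, had 76.6, 88.0 and 75.3 TPM and a log2 fold change of -0.63 (SE 0.35).

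Among receptors, NPTN, neuroplastin, which binds S100A8, had 128 TPM in scramble against 101 and 83.3, with a log2 fold change of -1.07 (SE 0.34). BSG, basigin, a receptor for S100A9, had 293, 398 and 275 TPM (-0.25, SE 0.37), and ALCAM, an adhesion molecule that binds S100B, 36.5, 30.4 and 10.5 TPM (-1.36, SE 0.55). Their S100 ligands were at or near 0 in these libraries, S100B with 7, 9 and 6 counts. AHNAK, the scaffold bound by the S100A10 and annexin complex, had 34.0, 46.4 and 25.5 TPM. MYH9, the myosin heavy chain bound by S100A4, had 81.8, 114 and 81.6 TPM, ANXA5 80.8, 111 and 171, and IQGAP1, a cytoskeletal scaffold, 65.2, 114 and 87.9. These levels per length differ in direction from the TMM scale in places. There BSG, CACYBP, AHNAK (685, 666 and 394 CPM; -0.37, SE 0.42) and MYH9 were lower in both libraries (MYH9 669, 657 and 476 CPM; -0.24, SE 0.38), ANXA5 was a little lower in library 1 (136, 133 and 211 CPM; 0.34, SE 0.40) and IQGAP1 lower in library 2 (384, 462 and 338 CPM; 0.06, SE 0.38). CD36, a scavenger receptor, had 2, 22 and 18 counts, a ratio of 8.16 in library 1 (95% counting interval 2.01 to 71.6) and 6.88 in library 2 (1.65 to 61.1). PLAU, urokinase, which activates plasminogen, had 0, 12 and 13 counts. Against a floor of 3 counts in scramble this was 2.97-fold and 3.31-fold higher. TRPV6, a calcium channel, had 0, 7 and 12 counts, 1.73-fold and 3.06-fold higher against that floor. The folds of PLAU and TRPV6 leave out the counting error of the shKLF5 libraries and are not lower bounds. Without the filter on low counts the median log2 fold change over 36019 genes was 0.33. It was 0.04 over the genes tested. With 2 shKLF5 libraries and 1 scramble library, a gene of few reads more often has them in shKLF5 alone. No direction for scarce genes is read from this gap.

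The rest of the family stood apart in level. Of 10 other S100 genes, 4 had at least 10 counts in a library, and their list reached 34.9, 50.3 and 47.0 TPM in sum. S100A13, which helps export growth factors that lack a signal peptide, was the highest of them, with 21.6, 35.2 and 28.5 TPM and a log2 fold change of 0.39 (SE 0.42). S100A1, a regulator of calcium handling in muscle, had 2.38, 3.66 and 4.62 TPM and lies on the opposite strand within the same stretch as S100A13. S100A3, a protein of hair cuticle, had 6.14, 4.62 and 7.61 TPM, and S100A5 had 4.44, 5.97 and 5.77. In TPM 3 of these 4 were higher in both shKLF5 libraries and S100A3 went opposite ways. On the TMM scale 2 were higher in both, S100A5 was lower in both (2.03 CPM in scramble against 1.93 and 1.98) and S100A3 went opposite ways. None was called by edgeR's quasi-likelihood test, by DESeq2 or at an unadjusted p under 0.05.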

How the data were processed

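The authors deposited 1 kallisto abundance table per library. Its estimated counts per transcript are not normalised, and its TPM are counts over effective length brought to 1 common sum, per the file headers. Transcript and effective lengths, also deposited, served for length-scaled counts. Kallisto, DESeq2 and hg19 are named in the submitters' processing notes. Which transcript set was indexed and whether strand was used is not given in the sources used here.

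Of 196354 transcripts 92.6% matched GENCODE 29 (GRCh38, the source of the coordinates), and unmatched ones held 3.05% to 3.42% of counts. Estimated counts were summed per gene and rounded. edgeR 4.0.16 in R 4.3.3 (filterByExpr, TMM, quasi-likelihood F test with legacy = FALSE, 1 residual degree of freedom) was fitted to all 3 libraries, and p-values were adjusted by Benjamini-Hochberg over 20629 genes at 0.05. The spread pooled over genes entered with a median of 6.86 prior degrees of freedom. SE is the absolute log2 fold change over the square root of F, so it rests mostly on that pooled spread. SD is over the 2 shKLF5 libraries. Single-library log2 fold changes used a prior count of 2. Reads carried no molecular identifiers. The fit was tested on simulated data. Alternatives also used DESeq2 1.42.0 and limma 3.58.1, on log2(TPM + 1).

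The members and lists were chosen with earlier results of these data known. The naming rule took KLF5, all members and their transcripts of at least 10% of TPM, other S100 genes with 10 counts, the 10 partners of highest mean CPM with any at an unadjusted p under 0.05, up to 4 fused-type genes and 4 neighbours of smallest p, and the 3 genes nearest the most abundant member.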

Additional observations from a re-analysis of the deposited data

How the results depend on the processing

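No S100 member was called under any alternative that gave a test, and all called genes lay outside the family: 21 by edgeR's legacy fit and 118 by DESeq2, against 0 in the reported test, which had 1893 genes at an unadjusted p under 0.05. KLF5 passed by edgeR's legacy fit (-2.96) and by DESeq2 (-3.00). The members' median log2 fold change was -0.21 with library size alone and -0.20 by limma on log2(TPM + 1), where the median of all genes was 0.47 and 0.26. It ran from -0.72 to -0.62 with each shKLF5 library left out in turn, values that carry no test. S100A6 turned to 0.22 with library size alone and to 0.23 by limma on log2(TPM + 1). The cause was not tested. The number of members lower in both libraries ran from 5 to 7, and 9 members entered without the filter on low counts and by DESeq2. S100A10, S100A11, S100A2, S100A4, S100A16 and S100A14 kept the direction of their log2 fold change under every alternative, S100A14 with 0.03 in library 1 alone. With length-scaled counts S100A14 was not higher in both libraries. No paired analysis was possible because the scramble group has 1 library without a number. S100A7, S100A8 and S100A9 had no more than 3 counts in a library and S100A14 and S100A16 no more than 60, so their values carry wide counting error.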

Other observations

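The interval of chromosome 1 that holds the S100 genes also holds those of the cornified envelope, and these were scarce. Of 61 other genes there outside the S100 lists 13 were tested, 4 of them lower than scramble in both shKLF5 libraries and 5 higher, and the median of their log2 fold changes was 0.27, where 36.5% and 37.9% of all genes were lower and higher in both. Their summed level was 15.4 TPM in scramble, 29.03 in library 1 and 26.8 in library 2. This sum is not of envelope genes alone, since the 61 include noncoding genes and pseudogenes. The antisense BX470102.1 had 4.57, 5.19 and 7.11 TPM of it. Over all genes the median log2 fold change was 0.33 without the filter on low counts and 0.04 with it. This gap depends in part on having 2 shKLF5 libraries against 1 scramble library, and no direction for scarce genes is read from it. LCE1F, a late envelope gene, had 4, 22 and 22 counts, and the noncoding LINC01527 had 17, 8 and 3. KPRP, a keratinocyte protein rich in proline, had 2, 10 and 13 counts, a ratio of 3.71 (95% counting interval 0.790 to 34.8) and 4.97 (1.12 to 45.3) in libraries 1 and 2, and C1orf68 had 2, 18 and 3.

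Of 7 fused-type S100 genes, whose products join an S100 domain to long repeats, 4 were tested and none was called by edgeR's quasi-likelihood test or by DESeq2, with 1 at an unadjusted p under 0.05, where 9.18% of all genes were at that limit in either direction. That was FLG, filaggrin, with 913, 3800 and 1948 counts. Its log2 fold change was 1.24 (SE 0.48, adjusted p = 0.504 by edgeR's quasi-likelihood test). HRNR, hornerin, had 15, 21 and 102 counts, high in library 2 alone, and TCHH, trichohyalin, had 19, 15 and 14. FLG2 had 7, 14 and 8.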
